A study of Mus musculus with 2 samples.

Results

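Strong distal peaks are the sites of open chromatin in the mouse cortex that lay away from annotated gene starts and were among the strongest in both libraries. They were measured by DNase-seq, which reads the DNA ends that the nuclease DNase I leaves where chromatin is accessible. The tissue was left cerebral cortex from B6CASTF1/J males, 8 to 10 months old, which are first-generation crosses of C57BL/6J with the castaneus-derived strain CAST/EiJ. The study held 2 libraries of 1 group, biological replicates 1 and 2, which carry different biosample identifiers but the same donor identifier, so that the spread between them may leave out variation between animals. There was no treatment and no second group.

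The members were chosen by their measured strength, a value that the authors deposited with each peak and whose scaling is unknown here. A peak of the stricter of the deposited lists was taken where it lay on an autosome and overlapped exactly 1 stricter peak of the other library, and the reverse held. Its strength had to be 3 or more in both libraries, and both midpoints had to lie more than 2.5 kb from every transcript start of GENCODE M21 (mm10). These conditions left 358 peak pairs, out of 40705 stricter peaks in replicate 1 and 39508 in replicate 2, of which 26575 pairs were shared 1 to 1 on autosomes. Of the 10881 shared pairs that met the distance condition, 3.29% met the strength condition as well, and the other 10523 are called weaker distal peaks here. A further 3214 shared pairs were as strong but lay within 2.5 kb of a start, and are called strong peaks near starts. Because strength chose the members, their strength is a description and supports nothing. The tissue label was set beside peaks at marker genes. Of 7 excitatory cortical neuron markers, 5 had a stricter peak within 1000 bp of a start in both libraries, against 1 of 6 markers of other brain regions and 1 of 6 of other organs. Of astrocyte markers 2 of 4 had one and of oligodendrocyte markers 1 of 5, while none of 5 inhibitory neuron, 4 microglia and 3 endothelial markers did. How many of all coding genes had such a peak was not counted, so these small counts are a description and no test of the label.

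Distal open chromatin is commonly held to contain enhancers, which loop to promoters, and insulators. Insulators are bound by CTCF, a zinc finger protein that stops the cohesin ring from extruding a DNA loop and so sets the borders of folded domains. Open chromatin is also found at the genes for transfer RNA. They are read by RNA polymerase III, which is recruited by factors that sit on promoter elements inside the gene and by TFIIIB, which binds just upstream of it. CpG-rich DNA, typical of promoters, is likewise often free of nucleosomes.

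The strong distal peaks fell into groups by the DNA they hold, and the sequences below show 1 or more of the strongest members of each. The groups were drawn up after the values had been seen, in the order repeated sequence, tRNA gene, CTCF core, CpG-rich, so that each peak stands in 1 group, and no test was run on them. All sequences are of the reference assembly GRCm38.p6 (mm10) as held by RefSeq, not of the hybrid animals, and were read 5′ to 3′ on the plus strand unless stated. Only peaks that touch no GENCODE exon were printed. The first pair shows peaks over tRNA genes, with the bases of the gene in capitals. The Lrp3 peak, named for its nearest coding gene by start, is chr7:35234741-35234980 and holds n-TTagt9, a threonine tRNA gene on the minus strand. The 1810010H24Rik peak is chr11:107012681-107012960 and holds n-TRccg1, an arginine tRNA gene on the plus strand.
Lrp3 peak: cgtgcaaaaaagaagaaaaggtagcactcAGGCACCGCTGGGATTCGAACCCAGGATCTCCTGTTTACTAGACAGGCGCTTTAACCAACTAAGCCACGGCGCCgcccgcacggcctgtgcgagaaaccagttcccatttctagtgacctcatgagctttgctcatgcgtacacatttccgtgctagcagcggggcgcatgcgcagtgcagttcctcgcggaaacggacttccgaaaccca
1810010H24Rik peak: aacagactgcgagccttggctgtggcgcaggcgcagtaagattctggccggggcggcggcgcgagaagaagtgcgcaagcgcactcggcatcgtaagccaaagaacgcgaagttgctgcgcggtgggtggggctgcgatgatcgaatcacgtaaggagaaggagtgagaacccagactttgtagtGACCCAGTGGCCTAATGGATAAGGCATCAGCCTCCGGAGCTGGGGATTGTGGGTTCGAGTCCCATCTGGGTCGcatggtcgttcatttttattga
The next peaks hold a CTCF core, in capitals. They are chr7:73618401-73618660 (nearest coding gene Chd2), chr11:98342661-98342900 (Ppp1r1b, which holds 2 cores) and chr5:114667621-114667820 (Trpv4).
Chd2 peak: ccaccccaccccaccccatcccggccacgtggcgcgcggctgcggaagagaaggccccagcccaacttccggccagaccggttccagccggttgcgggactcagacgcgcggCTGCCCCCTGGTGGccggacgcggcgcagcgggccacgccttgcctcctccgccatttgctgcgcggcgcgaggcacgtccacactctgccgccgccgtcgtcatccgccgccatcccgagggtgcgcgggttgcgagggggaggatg
Ppp1r1b peak: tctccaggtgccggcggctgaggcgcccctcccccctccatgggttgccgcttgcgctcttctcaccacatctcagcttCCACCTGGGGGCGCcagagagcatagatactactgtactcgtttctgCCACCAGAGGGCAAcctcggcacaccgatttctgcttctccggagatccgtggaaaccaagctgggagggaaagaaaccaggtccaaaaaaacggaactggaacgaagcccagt
Trpv4 peak: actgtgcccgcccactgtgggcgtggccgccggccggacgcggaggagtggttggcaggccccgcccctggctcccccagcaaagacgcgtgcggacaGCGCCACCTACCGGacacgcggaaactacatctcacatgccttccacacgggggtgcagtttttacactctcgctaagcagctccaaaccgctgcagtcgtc
The last set holds neither a tRNA gene nor a CTCF core. The Foxk1 peak, chr5:142367321-142367580, is CpG-rich, and its capitals mark matches to the NRF1 site and to GGGCGGGG, a site of the SP and KLF factors. The Gm8797 peak, chr3:5860361-5860530, and the Igf2bp3 peak, chr6:49236421-49236640, are sequences that occur elsewhere in the assembly too.
Foxk1 peak: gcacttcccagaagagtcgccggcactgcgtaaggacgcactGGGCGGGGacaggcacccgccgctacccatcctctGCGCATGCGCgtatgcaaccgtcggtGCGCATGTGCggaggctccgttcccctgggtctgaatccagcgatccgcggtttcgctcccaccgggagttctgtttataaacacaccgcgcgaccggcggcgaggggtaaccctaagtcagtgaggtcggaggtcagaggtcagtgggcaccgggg
Gm8797 peak: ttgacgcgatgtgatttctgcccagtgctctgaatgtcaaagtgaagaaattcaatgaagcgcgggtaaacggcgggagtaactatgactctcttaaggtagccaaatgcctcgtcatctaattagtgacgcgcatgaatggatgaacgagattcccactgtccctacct
Igf2bp3 peak: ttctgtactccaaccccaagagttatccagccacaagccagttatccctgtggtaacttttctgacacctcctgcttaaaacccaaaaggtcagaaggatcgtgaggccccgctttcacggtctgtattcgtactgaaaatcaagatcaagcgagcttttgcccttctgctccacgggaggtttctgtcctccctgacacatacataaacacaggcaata

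Strength among the 358 members had a median of 3.89 in replicate 1 and 4.05 in replicate 2. The highest values were 33.9 in replicate 1 and 49.5 in replicate 2, and only 7 members in replicate 1 and 9 in replicate 2 reached 10. The weaker distal peaks had medians of 1.20 in replicate 1 and 1.07 in replicate 2. The rule's limit cuts a continuous range. The members just inside it, Kcnip4, Ephb2, P3h3, Igsf23 and Cdh15 by nearest coding gene, were tied at 3.004 in replicate 1, with 3.87, 4.24, 3.81, 3.42 and 5.06 in replicate 2. Of the peaks just outside it, the Copz2 and Slc43a2 peaks had 4.17 and 3.34 in replicate 1 with 2.9998 each in replicate 2, and the Fam49a peak had 2.99 in replicate 1 and 4.43 in replicate 2. All of these peaks hold a CTCF core.

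The members were wider and held more footprints, the short protected stretches that the authors deposited for each library, than the weaker distal peaks. Their median width was 220 bp in both libraries, against 185 and 186 bp for weaker distal peaks and 260 bp for strong peaks near starts. A member held a median of 4 footprints, a weaker distal peak 2 and a strong peak near a start 5. All 358 members held at least 1 in both libraries, against 94.7% of weaker distal peaks in replicate 1 and 93.1% in replicate 2. In 157 members the deposited interval was the same in both libraries. Width and footprint calls come from the same cuts as the strength that chose the members, and how far they follow from it was not tested.

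Grouped by their DNA, 171 members (47.8%) held a CTCF core, 59 (16.5%) were CpG-rich without one, 42 (11.7%) lay over a tRNA gene and 19 (5.31%) held repeated sequence. The remaining 67 (18.7%) met none of these definitions. The mix shifted with strength among the shared distal peaks. The shares below are by strength in the library with the lower value. In replicate 1 a CTCF core was found in 29.1% of the 5113 peaks below 1 and 59.5% of the 995 between 2 and 3. Among members the share was 55.1% of the 243 between 3 and 4. It was 42.5% of the 87 between 4 and 6 and 10.7% of the 28 at 6 or more. In replicate 2 the shares were 27.3%, 59.8%, 55.1%, 42.5% and 10.7%. Over the same classes the share over a tRNA gene was 0.156%, 2.31%, 8.64%, 14.9% and 28.6% in replicate 1. Repeated sequence made up 2.68%, 1.51%, 3.29%, 3.45% and 28.6%. CpG-rich peaks, counted whatever else they hold, made up 5.85%, 16.8%, 28.4%, 43.7% and 67.9% in replicate 1. The highest class rests on 28 peaks, 3 with a CTCF core and 8 each with a tRNA gene or repeated sequence.

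**Figure D1:**
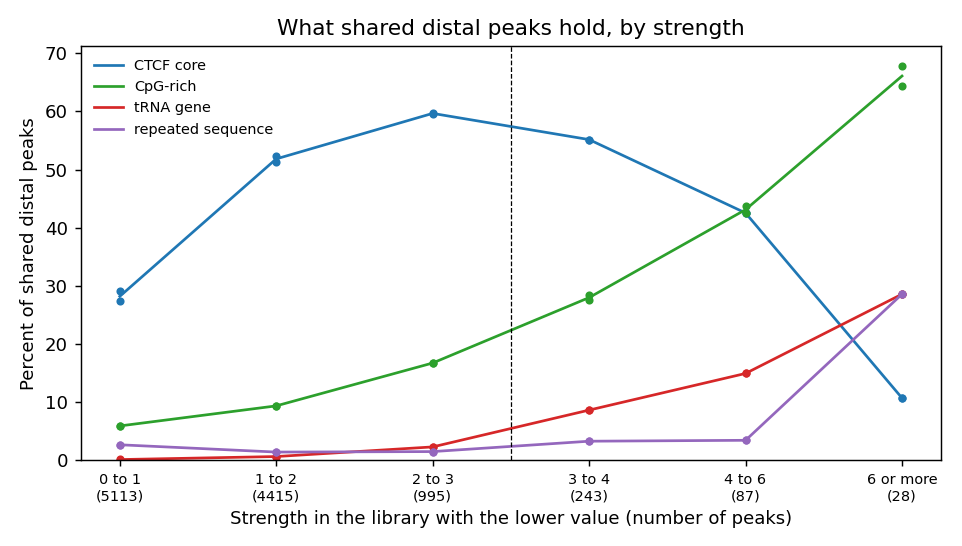
Percent of shared distal peaks (y axis) that hold a CTCF core, are CpG-rich, overlap a tRNA gene or hold repeated sequence, by strength in the library with the lower value (x axis, number of peaks in brackets). Points are the 2 libraries and lines their mean, and the dashed line marks the limit of 3 for the strong distal peaks. The CTCF core share is highest at 2 to 3 (59.5% and 59.8% in the libraries) and falls to 10.7% at 6 or more, where 28.6% of the peaks overlap a tRNA gene.

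**Figure D2:**
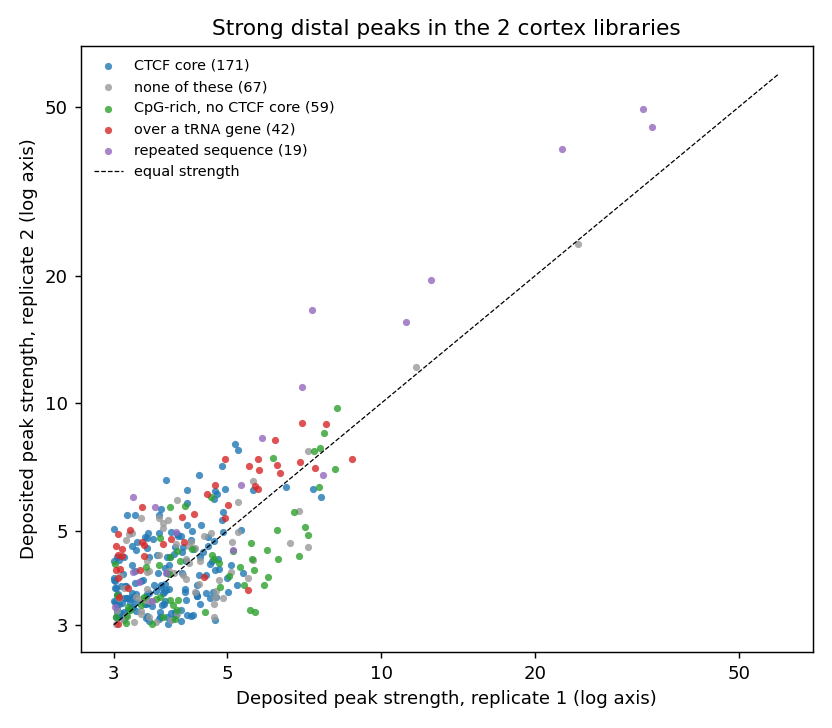
Deposited strength of each of the 358 strong distal peaks in replicate 1 (x axis, log scale) and replicate 2 (y axis, log scale), coloured by the DNA the peak holds, with the number of peaks in brackets. Most peaks over tRNA genes (37 of 42) and most with repeated sequence (16 of 19) lie above the line of equal strength.

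Genes for transfer RNA were a larger share of the strong distal peaks than of the weaker ones. RefSeq annotates 386 autosomal tRNA genes on this assembly, while GENCODE M21 lists 0 nuclear ones, so the distance rule took no account of them. In each library, 42 of the 358 members (11.7%) overlapped a tRNA gene, against 0.561 ± 0.0134% of the weaker distal peaks and 1.49% of the strong peaks near starts. Over all shared distal peaks the share was 0.937% in replicate 1. Put the other way, 42 of the 102 shared distal peaks over a tRNA gene (41.2%) were strong in both libraries. The word distal therefore holds for these peaks only with respect to GENCODE. They lay over 43 genes, since 1 peak covered a pair, for 17 of the 20 amino acids annotated. Leucine had 6 of its 25 genes under a member, arginine 5 of 23, and glutamate 4 of 20. Cysteine had none of 57, and glutamine and tyrosine had none of 15 and 10. Over all amino acids it was 43 of 386, and only 263 of the 386 start more than 2.5 kb from a GENCODE start. How many genes of each amino acid met that distance was not counted, so these small counts are no result about any amino acid. Of all 386 genes, 184 (47.7%) had a stricter peak in both libraries.

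By the worse of its ranks in the libraries, the strongest of these peaks was that near Lrp3 with the threonine tRNA gene n-TTagt9, at 7.81 in replicate 1 and 8.93 in replicate 2. The Pllp peak, chr8:94704081-94704260, followed with 8.77 and 7.398. In replicate 1 this interval reaches only the first bases of n-TLcag4, a leucine tRNA gene at chr8:94704004-94704086, while the replicate 2 interval, chr8:94704001-94704260, covers the whole gene. A CTCF core lies beside the gene. The Pllp peak had the highest value of the tRNA peaks in replicate 1, and the n-TLcaa3 peak had it in replicate 2. The arginine tRNA gene n-TRccg1 lay under a peak of 7.43 and 7.04. Several members came from tRNA clusters. In the cluster near Aurkb on chromosome 11, 4 members within 2 kb of each other lay over n-TPcgg3 (proline, 3.44 and 4.35), n-TDgtc9 (aspartate, 4.11 and 4.70), n-TGtcc6 (glycine, 3.05 and 3.87) and n-TWcca7 (tryptophan, 4.96 and 7.38). A pair 0.33 kb apart near Zfp692 covered n-TEctc10 (glutamate, 6.35 and 6.84) and n-TLcaa3 (leucine, 6.99 and 8.97). In each of these peaks replicate 2 had the higher value. Of 20 pairs of neighbouring members within 5 kb of each other in the whole set, 10 joined a pair of tRNA peaks, and the median gap between neighbours was 2.71 Mb.

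The B box, the promoter element inside tRNA genes that the factor TFIIIC binds, was searched on both strands with at most 1 mismatch. It was found in 36 of the 42 peaks in replicate 1 and in 1 other member. Of all members 10.6 ± 0.395% held it, against 0.689 ± 0.0470% of the weaker distal peaks and 2.13 ± 0.110% of strong peaks near starts. Footprints were aligned on the 5′ end of the 43 genes under strong distal peaks. At 20 bp upstream of the gene, 95.3% of the genes in each library lay under a footprint, against 51.7% and 61.7% of the 60 tRNA genes under weaker shared distal peaks. Inside the gene, 20 bases in, no gene under a member lay under a footprint in either library. At 55 bases in, near the B box, 83.7% and 86.0% did, against 75% and 78.3% at the weaker peaks. A further protected stretch at 104 bp upstream was present at 55.8% and 74.4% of the genes under members and at 10% and 15% of the weaker ones. The upstream positions thus differed more between strong and weaker peaks than the inner one. Footprint calling draws on the same cuts as the strength, and the part of cut number in these differences was not tested.

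**Figure D3:**
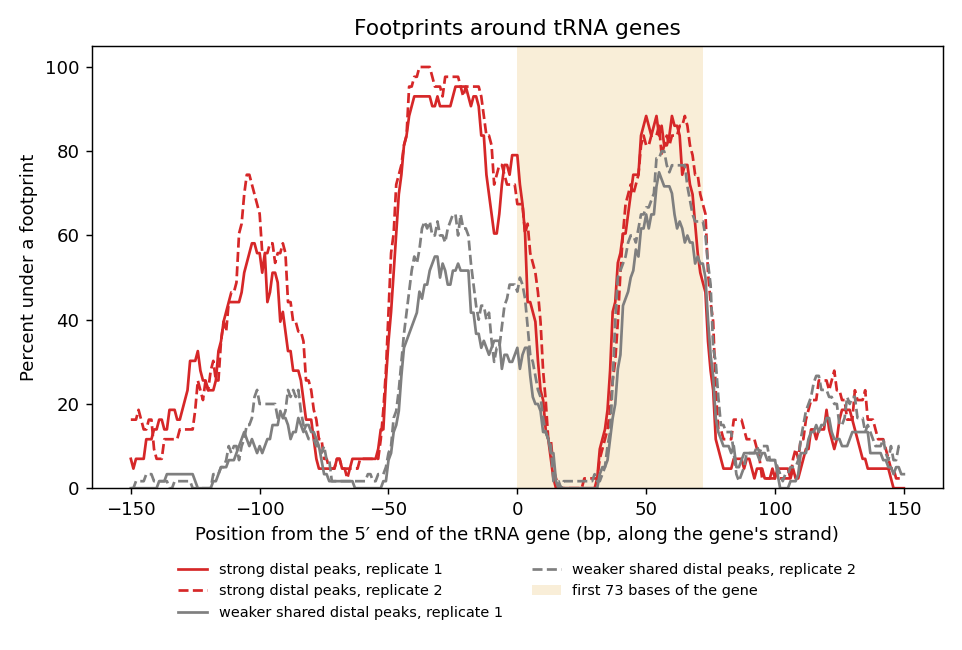
Percent of tRNA genes under a deposited footprint (y axis) at each position from the gene's first base (x axis, bp along the gene's strand), for 43 genes under strong distal peaks and 60 under weaker shared distal peaks, in each library. Under strong distal peaks the highest share upstream of the gene is 95.3% at 24 bp upstream in replicate 1 and 100% at 38 bp upstream in replicate 2, the share is 0 at 20 bases into the gene, and the highest share inside the gene is 88.4% at 50 bases in replicate 1 and at 65 in replicate 2.

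More accessible DNA lay around the tRNA peaks than around the other members. Within 1000 bp of the midpoint on either side, the bases in intervals that the authors listed at an FDR (false discovery rate) of 0.001 or less had a median of 969 in replicate 1 and 1071 in replicate 2. For the 297 members with neither a tRNA gene nor repeated sequence the medians were 381 and 426. The window also takes in neighbouring peaks, such as those of the tRNA clusters, and their part was not tested. The tRNA peaks themselves had a median width of 240 bp in replicate 1, against 200 bp for the 297. The CpG-rich group among the 297 had the same median width of 240 bp, and medians of 636 and 725 accessible bases. Strong peaks near starts had medians of 823 and 861 such bases. Strength also differed between the libraries. The log2 ratio of replicate 1 over replicate 2 had a median of -0.34 over the 42 peaks, and 37 of them were higher in replicate 2. Among the 297 other members the median was -0.02, with 136 higher in replicate 1 and 161 in replicate 2. At tRNA genes outside the members, the median was -0.38 over 60 weaker distal peaks, of which 52 were higher in replicate 2, and -0.26 over 48 strong peaks near starts, of which 43 were. Over all 26575 shared pairs the median was 0.12 and most (17236) were higher in replicate 1. With 1 library on each side this is a difference between 2 libraries, with no replicate check. How reads that match more than 1 tRNA gene were placed is unknown here.

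CTCF sites were the commonest content. The core motif used has 14 positions, was searched on both strands and was counted with at most 1 mismatch. It was found in 174 of the 358 members (48.6%) in each library, against 41.1 ± 0.860% of weaker distal peaks and 7.58 ± 0.154% of strong peaks near starts. The background over all shared distal peaks was 41.9% in replicate 1 and 40.7% in replicate 2. Windows of the same width moved 1000 bp to either side held it in 1.05 ± 0.0988% of cases for members, 0.829 ± 0.0504% for weaker distal peaks and 1.03 ± 0.0440% for strong peaks near starts. The 171 members grouped under CTCF had median strengths of 3.75 and 3.73 and none reached 10. The median strength in replicate 1 was 3.81 with an exact match (67 members) and 3.72 with 1 mismatch. Among the members with a core, 88 cores lay on the plus and 86 on the minus strand in replicate 1, and 10 peaks held more than 1.

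These 10 of the strongest CTCF members show how the core varies. Each line gives the core in capitals with 4 bases on either side, read along the motif's strand.
Chd2 core at chr7:73618513-73618526, minus strand: ccggCCACCAGGGGGCAGccgc
Ppp1r1b core at chr11:98342740-98342753, plus strand: gcttCCACCTGGGGGCGCcaga
Trpv4 core at chr5:114667719-114667732, minus strand: gtgtCCGGTAGGTGGCGCtgtc
Pxylp1 core at chr9:96916847-96916860, plus strand: ttcaTCACCAGGGGGCAGgcgg
Cd5 core at chr19:10709524-10709537, minus strand: ggcaCCAGCAGAGGGGGCtcag
Txnrd2 core at chr16:18443661-18443674, plus strand: gtggCCACGAGAGGGCGGcaga
Cebpb core at chr2:167685324-167685337, plus strand: cctgCCACGAGATGGCAGcatg
Rasgef1b core at chr5:99248659-99248672, plus strand: ctgaGCAGTAGGTGGCGCtcgg
Kdm8 core at chr7:125393831-125393844, minus strand: atgaCCGCTAGGGGGCACccag
Hs1bp3 core at chr12:8326997-8327010, plus strand: gtggCCACAAGGGGGCGCtcgg
The bases shared by all 174 members were C at position 2 of the core, counted from its 5′ end, and G at positions 7 and 10. Position 5 held every base, with C at 63.8%, T at 20.1% and A at 11.5%. Mismatches were most frequent at positions 3 and 5, at 16.1% of members each. The cores were found by a fixed pattern with at most 1 mismatch, so these base shares are in large part set by the search. The peak near Ppp1r1b had strengths of 7.62 and 5.9995, that near Chd2 7.35 and 6.26, and that near Trpv4 6.51 and 6.34. Some sites differed more between the libraries, such as that near Cebpb at 5.17 in replicate 1 and 8.02 in replicate 2.

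The core sat in the middle of the peak. Its centre lay a median of 10 bp from the peak midpoint in replicate 1 and 9 bp in replicate 2, and within 50 bp in 94.3% and 90.2% of the members with a core. In strong peaks near starts the medians were 30.5 and 30 bp. All 174 cores in either library lay under a footprint of the same library over at least 7 of the 14 bases. For weaker distal peaks the share was 93.2 ± 2.02%, and for strong peaks near starts 88.3 ± 0.0525%. The footprints over member cores were long, with a median of 41.5 bp in replicate 1 and 43 bp in replicate 2, against 29 bp in both at weaker distal peaks. They reached farther on the 5′ side of the motif, by a median of 26 and 27 bases from the centre, than on the 3′ side, by 17 bases in both. At the weaker peaks these reaches were 12 bases on the 5′ side and 14 on the 3′ side. At 20 bases to the 5′ side, 75.9% of cores in strong distal peaks were under a footprint in each library, against 47.2% and 50.4% of those in weaker shared distal peaks. Separate protected stretches stood at about 78 bp on the 5′ side (44.8% and 54.0% of member cores, 15.8% and 18.8% of weaker ones) and at 68 bp on the 3′ side (52.3% and 60.9%, against 28.4% and 27.7%). Between these and the core, at 40 bp on the 5′ side, 3.45% and 2.30% of member cores were covered. The members were stronger by choice, and whether the longer footprints follow from that was not tested.

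**Figure D4:**
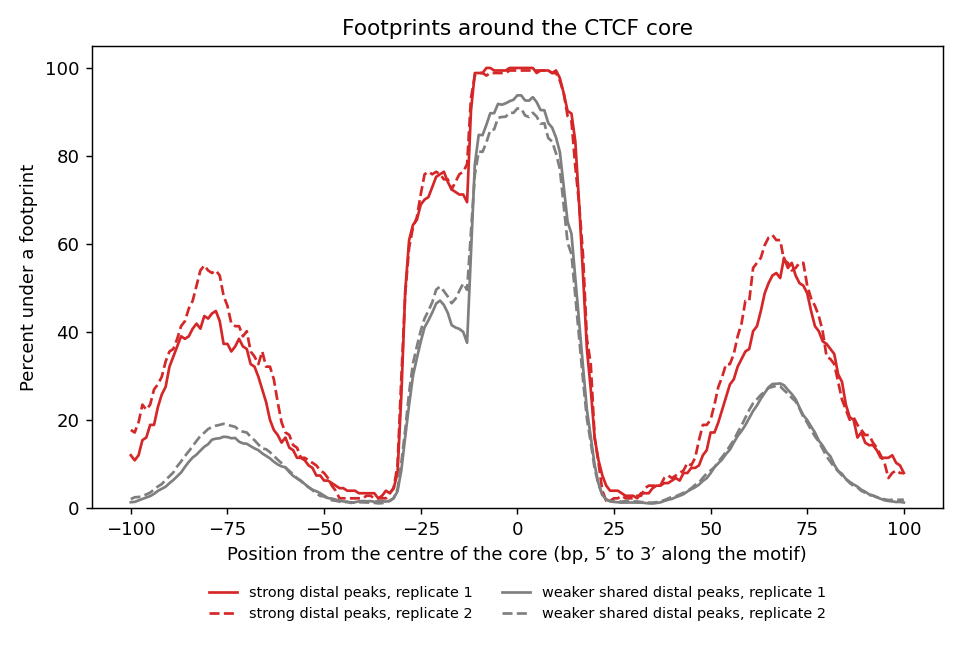
Percent of CTCF cores under a deposited footprint (y axis) by position from the centre of the core (x axis, bp, 5′ to 3′ along the motif), for 174 strong distal peaks and for weaker shared distal peaks in each library. The strong peaks reach 100% over the core in replicate 1 and show a shoulder on the 5′ side (75.9% at 20 bases) that is lower at weaker peaks (47.2% and 50.4%), with separate stretches near 78 bp on the 5′ side and 68 bp on the 3′ side.

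CpG-rich DNA was more frequent in members than in weaker distal peaks. CpG-rich means here a GC content above 50% and an observed over expected CpG ratio above 0.6. By this measure 34.6 ± 0.790% of members were CpG-rich, against 8.39 ± 0.0336% of weaker distal peaks and 91.8 ± 0.0220% of strong peaks near starts. The background over all shared distal peaks was 9.25% in replicate 1. The median CpG ratio of members was 0.505 in replicate 1, against 0.297 for weaker distal peaks and 0.879 for strong peaks near starts. The 59 CpG-rich members with no core or tRNA gene, and not counted as repeated sequence by the rule given below, had median strengths of 4.65 and 4.15. That rule does not count matches over a shorter part of a peak, so these peaks may still hold such stretches. The strongest was at chr6:47650741-47651000, with 8.18 in replicate 1 and 9.74 in replicate 2, 13.7 kb from the nearest GENCODE start and 55.5 kb from the nearest coding gene start, that of Ezh2. The start of a RefSeq transcript lay 433 bp from it. The Foxk1 peak, next by the worse of its ranks, had 7.72 and 8.52, and the Pum2 peak, chr12:8640961-8641180, had 7.60 and 7.85 at 33.1 kb upstream of the RNA-binding protein gene Pum2.

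**Figure D5:**
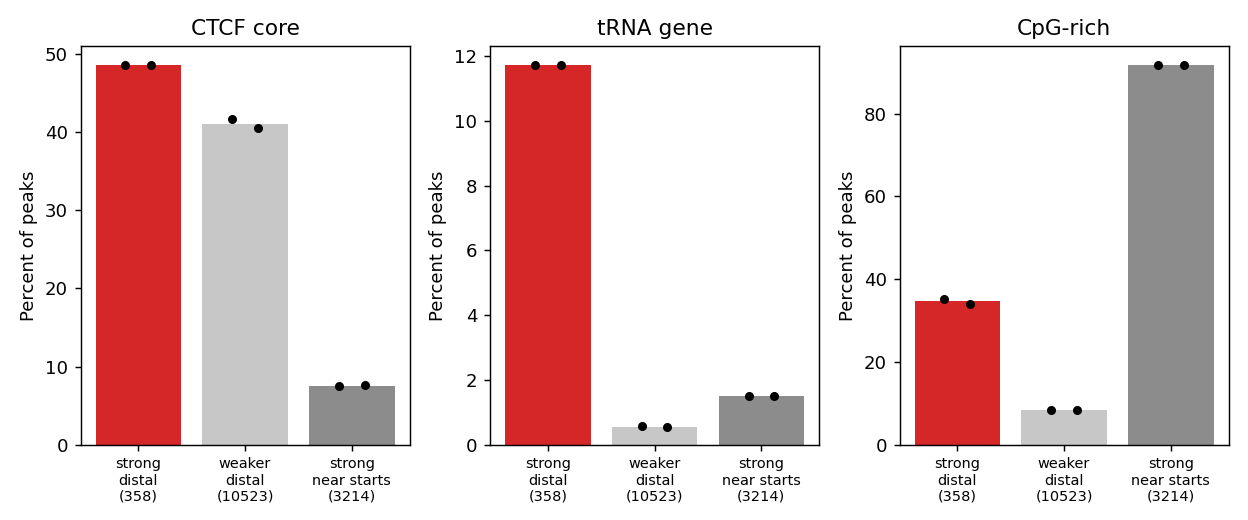
Percent of peaks (y axis, starting at 0, a scale for each panel) with a CTCF core, overlapping a tRNA gene or CpG-rich, for strong distal peaks, weaker shared distal peaks and strong shared peaks near starts (number of peaks in brackets). Bars are the mean of the 2 libraries and points the libraries. The tRNA share is 11.7% in strong distal peaks and 0.561% in weaker ones, and the CpG-rich share of 34.6% lies between 8.39% and 91.8%.

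Some members lay at starts that GENCODE M21 does not list. In 17 members (4.75%) a RefSeq transcript start lay within 500 bp of the midpoint, against 3.01 ± 0.0470% of weaker distal peaks and 92.7 ± 0.0220% of strong peaks near starts. The background was 3.03% in replicate 1. Of the 17, 7 lay over a tRNA gene, 6 were in the CpG-rich group, 3 in the CTCF group and 1 in the repeated group. The higher share thus rests at least in part on the tRNA peaks. The share without the tRNA peaks was not computed, and no result about the other members is drawn. With the tRNA genes, 52 members lay at a gene start or gene body of that kind, since 7 counted under both.

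By the mean of both libraries, 14 of 24 motifs searched were more frequent in members than in weaker distal peaks and 10 less frequent. Those described here were chosen after their values were seen. A motif was counted anywhere in the peak, and members were wider and more often CpG-rich than weaker distal peaks. The part of width and base content in the motif differences was not tested. The NRF1 site, bound by a regulator of genes of the respiratory chain among others, was in 8.66% of members, 1.29 ± 0.0470% of weaker distal peaks and 22.9 ± 0.0880% of strong peaks near starts. It was in 10 of the 42 tRNA peaks and 13 of the 59 CpG-rich ones in replicate 1, and in 6 of the 171 CTCF peaks. GGGCGGGG was in 8.52 ± 0.198%, 2.25% and 35.0 ± 0.0660% of the 3 sets. TGACGTCA, the full site of CREB, the factor through which cAMP and neuronal activity reach genes, was in 3.91% of members, 0.470% of weaker distal peaks and 6.85 ± 0.0440% of strong peaks near starts. ACTTCCGG, a site of ETS factors, was in 3.07%, 0.418% and 9.75 ± 0.0220%. GCGTGGGCG, the site of the early-response factors of the EGR family, was in 1.54 ± 0.198% of members, 0.271 ± 0.0202% of weaker distal peaks and 1.28 ± 0.0440% of strong peaks near starts. In replicate 1 TGACGTCA was in 14 members, ACTTCCGG in 11 and GCGTGGGCG in 5. All 5 with GCGTGGGCG were in the CpG-rich group. The X-box of the RFX factors was in 7.26% of members, 3.21% of weaker distal peaks and 6.85 ± 0.0880% of strong peaks near starts, with 10 of its 26 members in replicate 1 among the CpG-rich peaks.

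Of the motifs linked with neural enhancers described next, only the SOX site was more frequent in members than in weaker distal peaks. It was in 2.65 ± 0.198% of members, 2.06 ± 0.0672% of weaker distal peaks and 1.15 ± 0.132% of strong peaks near starts. In replicate 1 that was 9 members. The AP-1 site, bound by FOS and JUN, was in 3.35% of members, 5.96 ± 0.336% of weaker distal peaks and 2.05 ± 0.264% of strong peaks near starts. CAGATG, the E-box of the neurogenic factors, was in replicate 1 in 17.3% of members, 21.1% of weaker distal peaks and 7.84% of strong peaks near starts. The MEF2 site was in none of the members, 0.551 ± 0.0269% of weaker distal peaks and 0.498% of strong peaks near starts. With 358 members, a share of 0 for a motif so rare elsewhere says little. The search covered both strands, and a match is not a bound site.

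Repeated sequence held the strongest members. A peak was counted here when at least 60% of its length matched another place in the assembly at 90% identity or more. Only the chromosomes and the mitochondrial sequence were searched, starting from exact matches of 40 bases. Copies in sequence not placed on a chromosome, or without such an exact match, would be missed. This held for 19 members (5.31%), against 2.04% of weaker distal peaks and 1.15% of strong peaks near starts, with 2.15% over all shared distal peaks. None of these members matched the mitochondrial sequence. Reads from any copy can be placed on another, and no file used here says how such reads were treated, so these values may not belong to the place where they are listed. The rule counts no shorter matches. Peaks outside this group, those over tRNA genes among them, may therefore hold shorter repeated stretches with the same limit. Of the 7 members with a strength of 10 or more in replicate 1, 5 were repeated. The Gm8797 peak had 33.9 in replicate 1 and 44.9 in replicate 2, with 16 other matches on 10 chromosomes. A peak in an exon of Lars2, the mitochondrial leucyl-tRNA synthetase gene, at chr9:123461881-123462140 had 32.4 and 49.5, with 5 other matches. The Igf2bp3 peak had 22.6 and 39.9, and a peak in an intron of Gphn, which encodes the inhibitory synapse scaffold gephyrin, at chr12:78350861-78351120 had 12.5 and 19.5. A peak at chr16:57391301-57391420, in introns of Cmss1 and Filip1l, had 11.2 and 15.6.

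Several of these repeated peaks matched each other. The Igf2bp3 peak matched the Gphn peak over 168 bp at 99.4% identity and the Lars2 peak over 168 bp at 98.8%. The Gphn peak matched a stretch at the Hic2 peak, chr16:17222301-17222460, over 179 bp at 97.8%, which reaches beyond that peak. Searched from the Hic2 peak, the match to the Gphn peak was 125 bp at 96.8%. The Filip1l peak matched 1 of the 2 Jarid2 peaks over 120 bp at 99.2%. Replicate 2 was the higher library in 16 of the 19, with a median log2 ratio of -0.40, and 7 differed by more than 1.5-fold. Among all members 30 (8.38%) passed that fold, against 11.8% of all shared distal peaks. The lowest ratios of all members were those of the Jarid2 peak at chr13:44869561-44869720 (7.33 in replicate 1 and 16.6 in replicate 2, log2 ratio -1.18), the Hic2 peak (3.27 and 6.01, -0.88) and the Igf2bp3 peak (-0.82), all repeated. The highest ratios belonged to CpG-rich peaks near Tmem120b (5.66 and 3.21, 0.82), Cirbp (5.53 and 3.25, 0.77) and Srl (6.90 and 4.35, 0.67). For none of these was another copy found under the rule above.

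Of the 67 members with none of these features, a pair stood among the strongest of all. The peak at chr15:99735661-99736060 had 24.2 in replicate 1 and 23.8 in replicate 2, and lay in an exon of Cers5, a ceramide synthase gene, 10.2 kb from the nearest start, that of Cox14. The peak at chr13:58177601-58177840 had 11.7 and 12.2, and lay in an exon of Ubqln1, the gene of a ubiquitin-binding protein. The search found no other copy of either under the rule above, and their log2 ratios between the libraries were 0.03 and -0.05. The next in replicate 1, at 7.19, was the Txn2 peak, chr15:77933841-77934060, with 7.70 in replicate 2.

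By annotation, 232 members (64.8%) were intergenic, 106 (29.6%) intronic and 20 (5.59%) exonic in replicate 1. Introns held 29.5 ± 0.198% of members, against 40.8 ± 0.0605% of weaker distal peaks, with 40.5% over all shared distal peaks in replicate 1. The tRNA peaks were mostly intergenic (39 of 42). The nearest GENCODE start was a median of 9.81 kb away, 180 members lay closer than 10 kb and 3 farther than 100 kb. The 3 farthest were a repeated peak on chromosome 1 at 169 kb (nearest coding gene Cdh20, 6.99 and 10.9), a peak in an intron of the ion channel gene Trpm3 at 145 kb (3.93 and 3.98) and the peak over the glutamate tRNA gene n-TEttc7 at 119 kb (4.50 and 3.88). A RefSeq start lay 815 bp from the Trpm3 peak.

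The genes near members were compared with lists for the cell types of the cortex and of other organs. Of 20807 autosomal coding genes, 1280 (6.15%) had a member within 100 kb of a start. Over the 16 gene lists, 24 of 305 matched genes did. Among activity-regulated genes it was 3 of 24: Fosb, Nr4a1 and Per1. The Nr4a1 peak, 13.4 kb upstream of this early-response receptor gene, had 3.84 and 4.14 and a CTCF core. Of the excitatory neuron list 2 of 24 genes did, Mef2c and Neurod2, and both peaks held a CTCF core. The Mef2c peak, 62.3 kb from the start, had 3.97 and 3.17. None of 22 inhibitory neuron genes and none of 16 Hox genes had a member that near. Of the synaptic list, 2 of 23 did (Mapt and Vamp2), and the Vamp2 members were the tRNA peaks near Aurkb and Borcs6, which were also those of Per1. Microglia genes gave 3 of 20, astrocyte genes 1 of 20 (Nfia, 4.71 and 4.30, at 11.1 kb), oligodendrocyte genes 1 of 21 and endothelial and mural genes 1 of 22. The lists of other organs gave 1 of 18 for heart and muscle, 2 of 19 for liver, gut and pancreas and 2 of 14 for blood. Clustered protocadherin genes gave 2 of 13, both counted from the same pair of peaks near Diaph1, and imprinted genes 1 of 20. Within 50 kb these 2 lists, the oligodendrocyte list and the heart and muscle list each gave 0. The CTCF gene itself, of a list with 13 matched genes of CTCF and cohesin, was the only one there with a member. That peak, 13.997 kb from the Ctcf start in an intron of Agrp, had 3.83 and 3.02 and an exact CTCF core. These counts are small, and a list share near 6.15% is no result about the list. By chromosome the members ranged from 10 on chromosome 14 to 33 on chromosome 11, or 2.06% and 4.42% of the shared distal peaks there.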

How the data were processed

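The members and gene lists were chosen with earlier results of these data known. Per the notes deposited with the files, peaks were called on each library alone. The names of the aligner and peak caller were not given in any source used here, and the read depth of the libraries is unknown. The signal value deposited by the authors in each peak (column 7) is called strength and was used unscaled. The authors' table of FDR values (a kind of q-value) lists only values under 0.05. The footprint score the authors deposited (other column) is constant and was not used. Files and sequence were on mm10 (GRCm38.p6, RefSeq), and starts came from GENCODE M21. Shared means an overlap of at least 1 bp, 1 to 1. Motifs were searched with scripts in Python 3.11.15, tested on simulated data. Copies were sought with BLAST 2.17.0 (word size 40). The tRNA, CpG-rich and repeat groups and the B box were added after seeing the data. With 2 libraries of 1 group no p-value was computed. Values are given per library or as mean ± SD (n = 2 libraries), which may be technical spread. Peaks named are the 12 strongest by the worse rank, the 3 with the highest and lowest ratios, the 3 farthest, those near listed genes and those at the limit, and others were chosen after their values were seen. Alternatives are given at the end. The result of 1 gene list is not reported here.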

Additional observations from a re-analysis of the deposited data

How the results depend on the processing

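No paired analysis was possible because there is 1 group. Spread between 2 libraries was near 0 for several shares, so small shifts count as moves. The number of members was 1353 at a strength limit of 2, 115 at 4, and 178 at 10 kb, and 521 to 591 when chosen on 1 library alone. The CTCF core share was 56.7% at a limit of 2, 34.8% at 4, 46.3% at 1 kb, 50.3% at 10 kb, 42.9% with protein-coding starts only, 48.2% with 50% overlap, 48.2% to 51.6% from 1 library alone, 18.9% with no mismatch, 65.8% with 2 mismatches and 48.0% in 200 bp windows. The footprint share was 99.5% at a limit of 2, 99.8% at 1 kb, 99.3% with protein-coding starts, 99.2% to 100% from 1 library and 95.8% with 2 mismatches. The intron share was 35.3% at a limit of 2, 26.1% at 4, 31.5% at 1 kb, 29.2% at 10 kb, 27.4% with protein-coding starts and 29.0% to 32.8% from 1 library. The tRNA share, an alternative family added after seeing the data, was 4.80% at a limit of 2, 18.3% at 4, 11.2% at 1 kb, 9.55% at 10 kb, 12.1% with protein-coding starts, 12.5% with 50% overlap and 9.02% to 10.8% from 1 library. Also added afterwards, the midpoint of replicate 1 alone gave a CTCF share of 48.3% and a tRNA share of 11.7%. Leaving out repeated sequence gave 50.9% with a CTCF core, 29.1% in introns and 12.4% over tRNA genes. Leaving out tRNA peaks gave 54.4% with a core and 32.4% in introns. Of 16 gene lists, 10 kept their count within 1.5 times at 50 kb. The oligodendrocyte, clustered protocadherin, imprinted and heart and muscle lists fell to 0, and the excitatory neuron and blood lists to 1. Depth is unknown, copies cannot be told apart, and the cause of these shifts was not tested.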
